A study of Mus musculus with 40 samples.

Results

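The acetylation of histone H3 at lysine 27 (H3K27ac) was compared between white preadipocytes that lacked the nucleosome-binding proteins HMGN1 and HMGN2 and wild-type white preadipocytes, at day 0, before any differentiation medium was added. All libraries of that day were taken by their labels: 3 from wild-type cells (WT) and 3 from Hmgn1-/- and Hmgn2-/- cells (double knockout, DKO), which is 6 of the 24 H3K27ac libraries of the series. The cells came from inguinal white adipose tissue of C57BL/6 mice of 8 to 12 weeks, were grown on collagen-coated plates and carried the deletions of both genes in the germline, so that every cell type of a DKO mouse lacked them. No group was treated at this time. The labels number the libraries 1 to 3 within a genotype and do not say whether they came from separate mice, so the p-values measure the spread between these libraries, which may be technical. Each library is a list of peaks, and peaks of the 6 lists were merged into 101666 regions wherever they shared 1 bp or more, of which 31985 held a peak in 6 of 6 libraries.

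HMGN proteins bind nucleosomes without regard to DNA sequence, loosen the hold of linker histone on chromatin and are found at active promoters and enhancers. H3K27ac marks the promoters and enhancers that are in use in a cell, and is laid down by the acetyltransferases p300 and CBP and removed by histone deacetylases. Preadipocytes are the fibroblast-like precursors of adipose tissue. They make collagen-rich matrix, carry receptors such as PDGFRα, and turn into lipid-storing adipocytes when CEBP factors and PPARγ are induced.

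The sequences that carry the results are few, and 201 bp around the summit of 9 of them are shown from the plus strand of GRCm38, each free of annotated exons. Capitals mark matches to a RUNX motif (TGTGGTT), a TEAD motif (GGAATG) or an AP-1 motif (TGACTCA or TGAGTCA) on either strand, and windows without capitals held none of these letters. The first 3 are regions with less acetylation in DKO, the next 2 regions with more, and the last 4 regions called in all libraries of 1 genotype and none of the other.
256 kb from Runx1, lower in DKO, chr16:93083353-93083553: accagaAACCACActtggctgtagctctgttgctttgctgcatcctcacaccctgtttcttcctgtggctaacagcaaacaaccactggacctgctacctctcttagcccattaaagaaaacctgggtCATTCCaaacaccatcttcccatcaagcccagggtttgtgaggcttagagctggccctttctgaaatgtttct
Csgalnact1 intron, lower in DKO, chr8:68548310-68548510: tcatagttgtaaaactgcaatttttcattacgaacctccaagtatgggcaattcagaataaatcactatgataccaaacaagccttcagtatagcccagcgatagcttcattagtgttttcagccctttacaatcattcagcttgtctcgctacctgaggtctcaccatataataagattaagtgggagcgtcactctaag
Cfap69 start, lower in DKO, chr5:5625338-5625538: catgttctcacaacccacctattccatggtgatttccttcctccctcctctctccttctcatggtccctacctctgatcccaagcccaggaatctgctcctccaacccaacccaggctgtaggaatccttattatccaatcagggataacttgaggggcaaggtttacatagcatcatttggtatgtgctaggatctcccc
Cdca7l intron, higher in DKO, chr12:117867571-117867771: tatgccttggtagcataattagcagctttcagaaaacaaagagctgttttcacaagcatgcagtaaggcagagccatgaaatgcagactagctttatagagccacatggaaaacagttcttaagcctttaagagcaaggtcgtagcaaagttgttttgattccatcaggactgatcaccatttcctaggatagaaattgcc
Creb5 intron, higher in DKO, chr6:53461780-53461980: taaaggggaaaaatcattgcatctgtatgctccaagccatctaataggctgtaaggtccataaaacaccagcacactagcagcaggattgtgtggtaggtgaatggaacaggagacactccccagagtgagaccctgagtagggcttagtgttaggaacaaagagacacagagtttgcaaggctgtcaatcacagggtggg
Galnt9 upstream, WT only, chr5:110540664-110540864: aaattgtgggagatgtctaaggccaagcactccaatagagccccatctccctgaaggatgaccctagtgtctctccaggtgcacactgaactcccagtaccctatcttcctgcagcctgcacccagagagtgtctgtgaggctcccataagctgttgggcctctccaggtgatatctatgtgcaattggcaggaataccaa
Intergenic with Glra1 nearest, WT only, chr11:55768961-55769161: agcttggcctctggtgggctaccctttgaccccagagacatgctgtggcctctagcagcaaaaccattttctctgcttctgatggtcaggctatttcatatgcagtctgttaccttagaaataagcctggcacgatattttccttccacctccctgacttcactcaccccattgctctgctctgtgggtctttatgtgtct
Intergenic with Depdc1b nearest, DKO only, chr13:108293408-108293608: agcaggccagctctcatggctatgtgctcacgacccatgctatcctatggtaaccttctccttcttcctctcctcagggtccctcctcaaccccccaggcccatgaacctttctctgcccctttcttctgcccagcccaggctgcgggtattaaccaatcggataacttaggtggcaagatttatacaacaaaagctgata
Cdk6 intron, DKO only, chr5:3434716-3434916: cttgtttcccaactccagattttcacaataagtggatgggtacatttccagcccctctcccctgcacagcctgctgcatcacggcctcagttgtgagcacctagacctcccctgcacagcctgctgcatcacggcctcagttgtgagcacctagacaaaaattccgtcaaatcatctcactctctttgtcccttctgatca
The Runx1 window held a RUNX and a TEAD match. Of the 17388 regions outside promoters that were called in 6 of 6 libraries, 4.21% held the RUNX motif and 12.1% the TEAD motif within 100 bp of the summit.

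The 6 lists were not alike in form. The WT lists held 96853, 108437 and 102121 peaks over 46.1, 54.6 and 50.9 Mb, and the lists of DKO replicates 1 and 3 held 94943 and 111001 peaks over 47.7 and 58.0 Mb. DKO replicate 2 stood apart, with 60672 peaks over 96.4 Mb and a median peak of 1076 bp, against 327 to 349 bp in the other 5. Peak number (DKO minus WT −13598, exact permutation test, two-sided p = 0.6) and covered length (16.8 Mb, exact permutation p = 0.3) did not differ beyond the spread. Without DKO replicate 2 the difference in peak number turned to 502. The smallest p that 3 against 3 libraries can give is 0.1. The cells carried H3K27ac at the promoters of Pdgfra, Pdgfrb, Ly6a, Thy1 and Dcn in 6 of 6 libraries. No region was called at Cd34, Cd24a, Cd55 or Wnt2 among the 21 preadipocyte markers, at Adipoq, Cidec, Lep, Pck1 or Retn among the 12 genes of mature adipocytes, or at 7 of 9 epithelial markers. All 9 macrophage and leukocyte markers, among them Ptprc, Csf1r and Adgre1, had a promoter called in 6 of 6 libraries, so acetylation at genes of that cell type was present in the cultures of both genotypes.

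Hmgn2 checked the labels. Its promoter held a region at chr4:133966360-133967221 with a fold enrichment over local background of 10.2, 12.1 and 6.25 in the 3 WT libraries and no peak in any DKO library. A neighbouring region at chr4:133967705-133968298 had fold enrichments of 9.16, 6.70 and 7.93 in WT and again no peak in DKO. At days 3, 6 and 9 each of these held a peak in all 9 WT libraries and in none of the 9 DKO libraries. The Hmgn1 promoter at chr16:96126110-96129053 was called in every library, with fold enrichments of 13.98, 11.7 and 9.15 in WT and 13.4, 10.8 and 14.9 in DKO. The groups overlapped there (log2 difference 0.13 ± 0.19 SE, adjusted p = 0.737), and where in Hmgn1 the deletion lies was not checked, so that this promoter does not test the label. The promoters of Hmgn3, Hmgn5, Hmga1 and Hmga2, which encode the related chromatin proteins, did not pass the test either, with log2 differences in fold enrichment between −0.40 and −0.17 and adjusted p of 0.232 or more.

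Over the 31985 shared regions, fold enrichment at the summit was lower in DKO in 800 (2.5% of those tested) and higher in 907 (2.84%), together 5.34%, at an adjusted p under 0.05 by limma. The median of all regions did not move (log2 −0.0029). Among the regions called, the median absolute log2 difference was 0.76, and in 1678 of 1707 every library of 1 genotype lay above every library of the other. That separation comes from the values by which the regions were called, so it adds no support. Its share over all regions tested was not counted. A fold enrichment is the number of reads at the summit divided by a local background that the peak caller took from a control library, and both terms could be recovered from the deposited columns. The background of WT replicates 2 and 3 stood in 1 fixed ratio at 100% of the 712 summits that these lists shared to the base (r = 1.00). That of DKO replicates 1 and 3 correlated at r = 0.987 over 552 shared summits, that of WT replicate 1 at 0.989 and 0.974 with the other WT replicates, and that of DKO replicate 2 at 0.761 and 0.735 with the other DKO replicates, while the 9 pairs of libraries of different genotype gave r between 0.10 and 0.49. Within 0.02 on the log2 scale, a fixed ratio held at 60.5% of the shared summits of DKO replicates 1 and 3, at 56.6% and 57.2% of those of WT replicate 1 with the other WT replicates, and at 46.7% and 44.2% of those of DKO replicate 2 with the other DKO replicates, against 3.53% to 12.4% between genotypes. Over the 31985 regions, whose summits need not coincide, the log2 background correlated at 0.528 to 0.584 within a genotype and at 0.191 to 0.204 between genotypes. Part of the background was thus shared within a genotype, and the adjusted p of a fold enrichment does not fully cover its error.

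**Figure D1:**
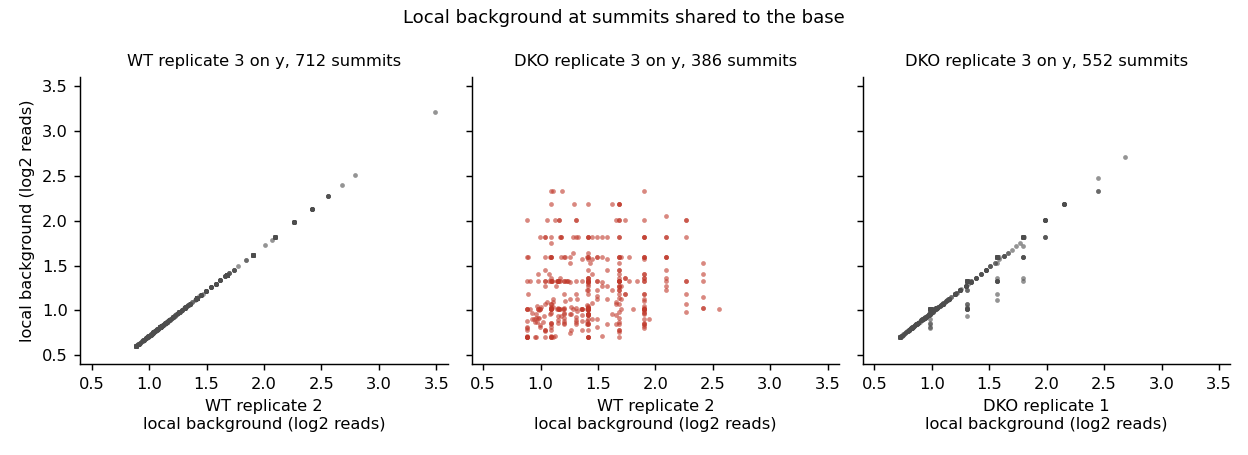
Local background recovered at summits that a pair of libraries placed on the same base, in log2 reads on both axes, for WT replicates 2 and 3 (712 summits), WT replicate 2 and DKO replicate 3 (386 summits) and DKO replicates 1 and 3 (552 summits). Each point is a summit. The WT pair lies on 1 straight line (r = 1.00), most of the DKO pair does (r = 0.987), and the pair of different genotype scatters (r = 0.203).

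The comparison was therefore also made on the reads at the summit alone, set over the lowest background of the library and normalised in the same way. By this measure 82 regions were lower in DKO (0.256% of those tested) and 88 higher (0.275%), together 0.531%. Fold enrichment and reads passed together in 91 regions, 49 lower and 42 higher, which is 5.33% of the regions called by fold enrichment and 53.5% of those called by reads. In 92.3% of the regions called by fold enrichment the reads differed in the same direction, with a median log2 difference of 0.31. In 698 of them (40.9%) the local background itself passed the test in the opposite direction, where over all regions it passed in 15.5%, lower in 8.12% and higher in 7.39%. Fold enrichment is made of reads and background, so the 92.3% and the 40.9% were partly set by the calls themselves. Without DKO replicate 2 fold enrichment was lower in 657 and higher in 621 regions, and leaving out any other single library left 365 to 421 lower and 386 to 549 higher. The reads called 18 and 23 without DKO replicate 2. The regions named next passed by both measures, unless stated, and those among them outside the 10 largest differences were chosen after their values were seen.

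**Figure D2:**
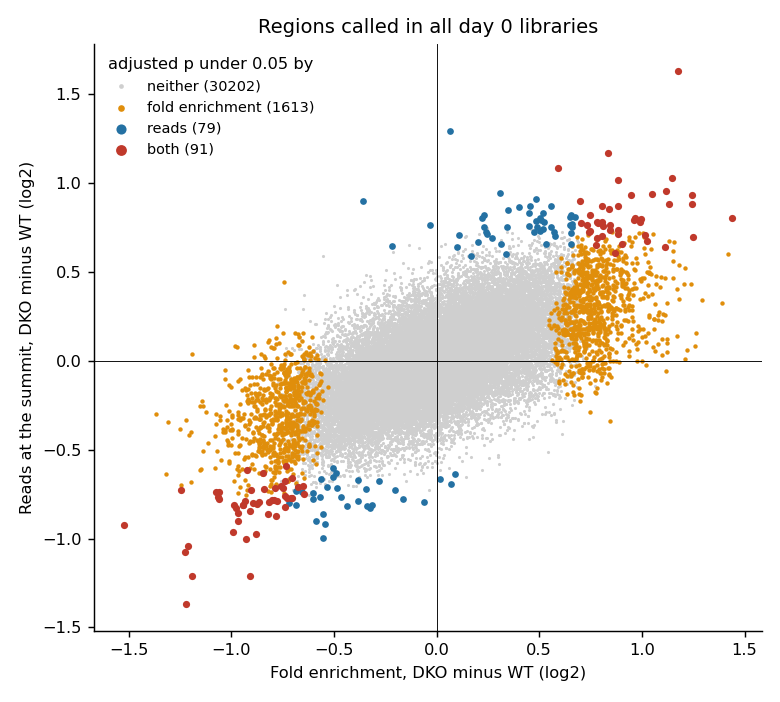
Difference between DKO and WT in fold enrichment (x axis, log2) and in reads at the summit (y axis, log2) for each of the 31985 regions called in 6 of 6 libraries. Regions past an adjusted p of 0.05 by both measures (91, red) lie along the diagonal, and those past it by fold enrichment alone (orange) lie closer to 0 in reads.

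Among the 49 regions with less acetylation in DKO, the largest loss of reads was at an intergenic region 256 kb from the start of Runx1, a transcription factor of blood and mesenchymal cells (chr16:93082459-93085239), whose summit holds the RUNX and TEAD matches shown above. It had 38, 36 and 32 reads at the summit in WT and 11, 21 and 18 in DKO, with fold enrichments of 11.4, 9.48 and 8.09 against 3.64, 3.50 and 5.40. The groups did not overlap in either, and normalised reads in DKO were 0.387 times those of WT (log2 −1.37 ± 0.18 SE, adjusted p = 1.87e-05). At later days it was called in 7 of 9 WT libraries and 0 of 9 DKO libraries. The Hmgn1 promoter lies on the same chromosome (chr16:96126110-96129053), and the part of this position was not tested. A region at the start of Cfap69, a protein of cilia and flagella, had 35, 42 and 37 reads in WT and 22, 19 and 17 in DKO (log2 −1.21 ± 0.19 SE, adjusted p = 0.00031). Csgalnact1, an enzyme that starts chondroitin sulfate chains on matrix proteoglycans, had 2 intronic regions among the 49. That at chr8:68548037-68549098 had 29, 39 and 25 reads in WT and 15, 25 and 13 in DKO, which is 0.474 times the WT level once normalised (log2 −1.08 ± 0.18 SE, adjusted p = 0.00138). Raw reads ran higher throughout in DKO replicate 2, with a median of 44 over the shared regions against 24 to 28 in the other libraries, which the normalised level removes.

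The promoter of Acacb (chr5:114175382-114176653), the acetyl-CoA carboxylase whose product restrains fatty acid oxidation in mitochondria, had the largest fall in fold enrichment of all regions tested, from 12.5, 10.8 and 13.8 in WT to 6.11, 3.31 and 3.78 in DKO (log2 −1.52 ± 0.22 SE, adjusted p = 0.000402). Its reads were 35, 33 and 37 in WT and 23, 27 and 18 in DKO (log2 −0.92, adjusted p = 0.00615), and its local background was higher in DKO, at 2.93, 7.45 and 4.03 against 1.87, 2.14 and 1.76. An intronic region of Insr, the insulin receptor, had 21, 22 and 21 reads in WT and 11, 18 and 14 in DKO (log2 −0.83 ± 0.18 SE). The promoter of Mfap5, a microfibril protein, had 33, 29 and 21 reads in WT and 13, 24 and 17 in DKO (log2 −0.78 ± 0.19 SE). A region 37.2 kb from Col5a1, a fibrillar collagen, had 35, 33 and 32 in WT and 20, 35 and 21 in DKO (log2 −0.71 ± 0.17 SE). Each of these last 3 passed the test of reads, with adjusted p from 0.0226 to 0.0339, and was called again at later days in 9 of 9 libraries of both genotypes.

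Of the other regions with less acetylation, Creb3l2, a membrane-bound factor of the secretory pathway, had 2 in its territory or nearest to it, of which the intergenic one at chr6:37465133-37466447 had 39, 43 and 34 reads in WT and 19, 39 and 22 in DKO (log2 −0.90 ± 0.16 SE, adjusted p = 0.00331) and was called later in 9 WT and 4 DKO libraries. A region in Spidr, whose nearest gene start is that of Cebpd, an early adipogenic factor, 77.6 kb away, had 28, 27 and 24 reads in WT and 17, 25 and 16 in DKO (log2 −0.74 ± 0.18 SE, adjusted p = 0.0415). It was called later in 8 WT and 3 DKO libraries. An intergenic region with Clec10a, a lectin of macrophages, nearest (chr11:70188831-70190273) had 38, 37 and 27 reads in WT and 18, 28 and 18 in DKO (log2 −0.96 ± 0.18 SE, adjusted p = 0.00331), and was called later in 9 WT and 2 DKO libraries. The other regions with large losses lay in Trat1, an adaptor of the T-cell receptor, whose reads were 31, 27 and 27 against 17, 18 and 13, and by Dcaf11, with 31, 36 and 27 against 16, 23 and 17. Their log2 differences in reads were −1.04 and −1.003.

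Of the 42 regions with more acetylation in DKO, the largest gain of reads was at the promoter of Dynlt1b, a light chain of the dynein motor (chr17:6429220-6431549), with 21, 24 and 20 reads in WT and 80, 119 and 67 in DKO (log2 1.63 ± 0.15 SE, adjusted p = 7.14e-10). Words of 31 bases from its summit window occurred a median of 4 times in the reference genome, so its counts are uncertain, and whether reads of the study's length can be placed there was not tested. The local background was also higher in DKO at that promoter (log2 0.46, adjusted p = 0.0365). A second region, 45.9 kb from it (chr17:6475997-6477732), rose in reads from 18, 17 and 21 to 50, 78 and 50, but its background rose with them, from 1.62, 1.85 and 1.52 to 5.93, 8.01 and 6.05, so that its fold enrichment did not pass the test (log2 0.07, adjusted p = 0.895). The promoter of H2-T23, a nonclassical MHC class I gene, rose from 19, 28 and 19 to 66, 78 and 46 reads (log2 1.17 ± 0.17 SE, adjusted p = 0.000107), with a background that was higher too (log2 0.31, adjusted p = 0.0166) and words that occurred a median of 2 times. Of the 42 windows, these were the only 2 with a median over 1, against 0.688% of all shared regions, and apart from that in Cdk6, which was not counted, the windows shown above had a median of 1.

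Among single-copy regions, the promoter of Fgfbp3, a carrier of fibroblast growth factors, had 22, 29 and 27 reads in WT and 52, 93 and 71 in DKO (log2 1.09 ± 0.15 SE, adjusted p = 4.57e-05), with fold enrichments of 8.38, 9.95 and 10.5 against 13.95, 12.2 and 19.1. Its local background was higher in DKO as well (log2 0.49, adjusted p = 0.0047). An intronic region of Cdca7l, a chromatin protein that binds MYC, had 16, 18 and 16 reads in WT and 30, 71 and 37 in DKO (chr12:117866561-117869220, log2 1.03 ± 0.18 SE, adjusted p = 0.00147). It was called in no library of either genotype at later days. In Creb5, a CREB-family factor that marks one kind of stromal progenitor, an intronic region (chr6:53461450-53462850) had 14, 12 and 13 reads in WT and 26, 51 and 23 in DKO, and normalised reads were 1.91 times those of WT (log2 0.93 ± 0.19 SE, adjusted p = 0.00944). The direction did not hold in the later calls, which came from 9 of 9 WT and 4 of 9 DKO libraries. Eif2ak3, which encodes the stress kinase PERK, gained from 16, 16 and 11 to 30, 44 and 29 reads at a transcript start 10.3 kb from its own (log2 0.94 ± 0.19 SE, adjusted p = 0.00906).

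The remaining regions described here were chosen after their values were seen, and no test asked whether the 42 lie near genes of any one cell type more often than other regions do. A region upstream of Slamf7, a receptor of lymphoid and myeloid cells, had 16, 16 and 13 reads in WT and 38, 45 and 35 in DKO (log2 0.95 ± 0.18 SE, adjusted p = 0.00576). An intron of Mrc1, the mannose receptor of macrophages, had 16, 17 and 13 against 31, 36 and 30 (log2 0.73 ± 0.18 SE, adjusted p = 0.0489). A promoter of Nfatc2, a factor of activated lymphocytes, had 14, 16 and 18 against 29, 51 and 30 (log2 0.80 ± 0.18 SE, adjusted p = 0.0226), and its fold enrichment had the largest rise of all, 3.62, 2.93 and 5.49 against 10.6, 10.7 and 10.3 (log2 1.44 ± 0.22 SE). Introns of Fli1, an ETS factor of blood and vessels, and of Pik3r5, a subunit of a leukocyte PI3 kinase, rose by 0.73 and 0.70 in log2 reads, and a region near Ifnar2, an interferon receptor chain, by 0.85. The Ifnar2 region (from position 91365472) lies on chromosome 16, as does the Hmgn1 promoter (from 96126110). So do the regions near Synj1 (from 91000250) and Rcan1 (from 92414979) among the 42. The part of this position was not tested. Over the whole list of 9 macrophage and leukocyte markers the summed fold enrichment was 212 to 237 in WT and 272 to 341 in DKO, and their 19 shared regions had a mean log2 read level of 3.49 to 3.58 in WT and 3.78 to 3.86 in DKO. The groups overlapped in neither. The part that this difference in marker acetylation has in the results was not tested, and in such bulk libraries more cells of a type and more acetylation per cell cannot be told apart.

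**Figure D3:**
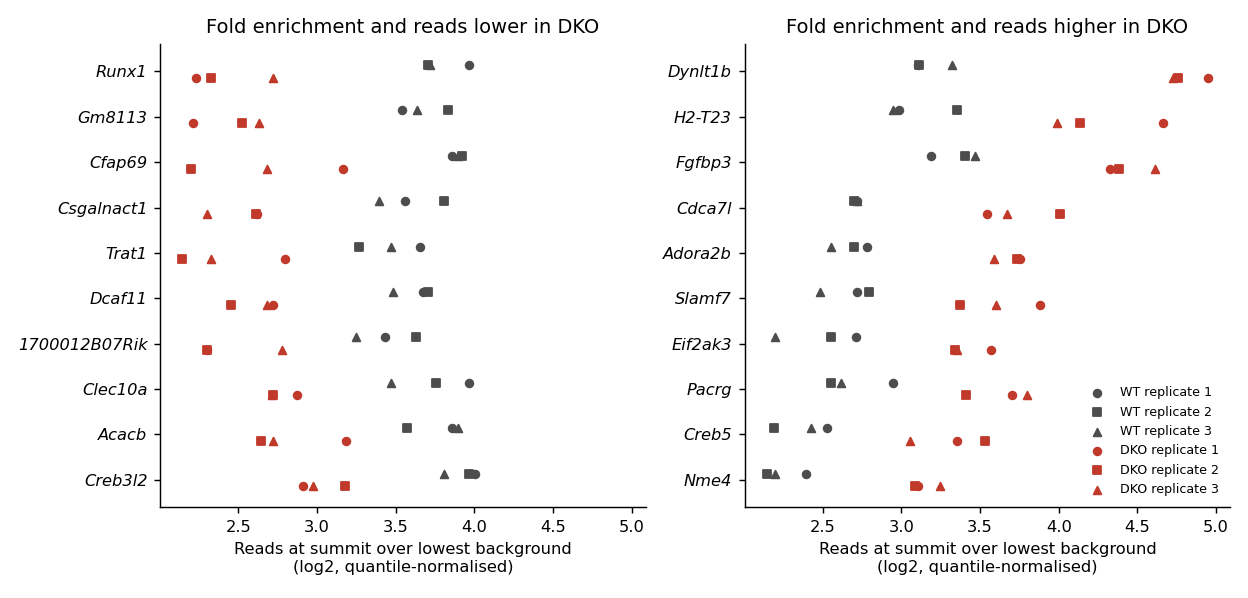
Reads at the summit in each of the 6 libraries, as log2 of reads over the lowest background of the library after quantile normalisation, for the 10 regions with the largest fall and the 10 with the largest rise in reads among the 91 called by both measures. Rows carry the nearest protein-coding gene and symbols the replicate. WT (grey) and DKO (red) separate in every row shown, but the rows were chosen by these values, so the separation adds no support.

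Regions that passed by fold enrichment alone can hold nearly equal reads. The promoter of Ndufa12, a subunit of respiratory complex I, fell from 20.6, 19.7 and 17.5 to 6.56, 5.75 and 11.4 in fold enrichment (log2 −1.37 ± 0.19 SE, adjusted p = 0.000402). Its reads were 53, 55 and 43 in WT and 38, 69 and 48 in DKO (adjusted p = 0.331), and its background was 1.62, 1.85 and 1.52 against 4.94, 11.2 and 3.28. The promoter of Pla2g6, a phospholipase, rose from 7.30, 7.81 and 7.72 to 20.5, 14.8 and 21.0 (log2 1.26 ± 0.18 SE), with 21, 61 and 61 reads in WT and 70, 89 and 73 in DKO (adjusted p = 0.838). A region near Flt1, a VEGF receptor, rose from 4.80, 4.80 and 6.12 to 11.9, 10.8 and 15.6 in fold enrichment, with 27, 32 and 32 reads against 33, 55 and 43 (adjusted p = 0.692). Regions near Spred1 and Fosb, the latter an AP-1 subunit, rose by 1.39 and 1.29 on the log2 scale of fold enrichment and by 0.33 and 0.34 in reads, with adjusted p of 0.367 and 0.378 for the reads. The called regions were also followed into the later libraries, which did not enter the calls, but only where all 6 libraries of a later day held a peak. Of the regions called by fold enrichment but not by reads, 570 lower and 572 higher could be used at day 3, with 467 lower and 451 higher at day 6, and at day 9 the numbers were 664 and 567. Their higher regions minus their lower regions differed between DKO and WT by 0.0836 in log2 fold enrichment on average over the 3 days (exact permutation test within day, two-sided p = 0.00025, which is its lower limit), where the same regions differed by 1.53 at day 0, the day by which they were chosen. Of the regions called by both measures, 20 lower and 16 higher could be used at day 3, with 17 lower and 9 higher at day 6, and at day 9 the numbers were 32 and 13. These differed by 0.544 in fold enrichment and by 0.796 in reads on average over the later days (exact permutation p = 0.00025 each), and by 1.83 and 1.67 at day 0. Those called by reads alone, of which 11 to 24 lower and 13 to 16 higher could be used, differed by 0.659 in reads later (exact permutation p = 0.00025) and by 1.48 at day 0. The day 0 values are descriptions, and regions without a peak in some later library are not covered. The permutation tests took every later library as a separate unit. The labels do not say whether the same cultures or mice recur across days, and if they do, the p-values are too small.

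A further 1145 regions held a peak in every WT library and in no DKO library (WT-specific, 1.13% of all regions), and 1347 the reverse (DKO-specific, 1.32%). These were weak peaks: the median reads at the summit were 13 to 15 in WT-specific regions and 14 to 23 in DKO-specific ones, against 24 to 44 in the regions called in all libraries. They lay in introns (45.2% and 48.0%) and between genes (37.9% and 28.0%) more than at promoters (10.4% and 12.5%), while 45.6% of the regions called in all libraries were promoters. With DKO replicate 2 left out there were 2623 and 4220, and leaving out another library gave 1391 to 2831 and 1796 to 3334, since fewer lists then have to hold or lack a peak. Peaks were called against the same local background, which was partly shared within a genotype. The calls of a genotype's libraries are therefore not fully independent, and how far this shaped both sets was not tested. The AP-1 motif stood within 100 bp of the summit in 3.70% of the WT-specific and 3.22% of the DKO-specific regions outside promoters, against 3.85% of all such regions.

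Ranked by the median q-value, the first DKO-specific region was intergenic, 22.2 kb from Depdc1b (chr13:108291840-108294161), with 54, 108 and 62 reads and fold enrichments of 18.5, 20.3 and 20.9 in DKO. No WT library of any day held a peak there, and 9 of 9 DKO libraries of later days did. The first WT-specific region lay 160 kb from Glra1 (chr11:55768439-55770220), with 25, 32 and 30 reads and fold enrichments of 8.60, 10.1 and 10.6 in WT, and held a peak in all 9 WT libraries of later days and in none of the DKO libraries. A second one, 140 kb from Glra1, was called later in 4 WT libraries and no DKO library. Not all carried over: the WT-specific region with Pcdh20 nearest was called later in 9 libraries of each genotype, and the DKO-specific one in Lclat1, an enzyme of cardiolipin synthesis, in 1 of each. A WT-specific region in Sfi1 rested on 161, 171 and 161 reads over a background of 77.3, 88.6 and 72.1, with fold enrichments of only 2.07, 1.92 and 2.22.

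By gene, Galnt9 held more WT-specific regions than any other. It encodes an enzyme that starts O-linked glycan chains, and the study lists it with white adipocyte genes that lost expression and acetylation in DKO cells of this same series, so its direction is not independent evidence. In its territory, from 5 kb upstream to the gene's end on chromosome 5, 7 of 15 regions were WT-specific and none DKO-specific. The 2 upstream regions had 29, 39 and 26 and 31, 23 and 26 reads in WT, and the 5 intronic ones had between 12 and 25. Over days 3, 6 and 9 the 7 regions were called in 5 to 9 of 9 WT libraries and in 0 to 2 of 9 DKO libraries. Its main region at an internal promoter (chr5:110602116-110608401) was called in all libraries and was among the 49, falling from 17.2, 15.1 and 14.7 to 6.90, 9.67 and 8.95 in fold enrichment (log2 −0.92 ± 0.19 SE, adjusted p = 0.00542) and by 0.61 in log2 reads (adjusted p = 0.0437). The megabase around it, from position 110000001 of chromosome 5, held 12 WT-specific and 1 DKO-specific of 92 regions (14.1%), against a median of 2.17% over 1531 stretches of 1 Mb. Another WT-specific region of that stretch lay near Noc4l and was called later in 9 WT libraries and 1 DKO library. The stretch with the highest share, on chromosome 7 from position 117000001, held 3 DKO-specific of 21 (14.3%).

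Runx2, the RUNX factor of bone formation, held 5 WT-specific and no DKO-specific regions of 60, all intronic, with 12 to 27 reads in WT. They were called later in 1 to 8 WT and 0 to 5 DKO libraries. Nrg1, a ligand of ERBB receptors, and Setbp1 held 4 WT-specific regions each and no DKO-specific one, and these were called later in at most 1 library. Cdk6, a kinase of the G1 phase of the cell cycle, held 5 DKO-specific and no WT-specific regions of 34. Their reads in DKO were 11 to 16 in replicate 1, 15 to 34 in replicate 2 and 11 to 22 in replicate 3. In later libraries they were called in no WT library and in at most 1 DKO library. The window shown above is that of chr5:3433376-3434928, with 14, 33 and 22 reads, and it holds a stretch of 50 bp 2 times in tandem. Tmem131l and Pus10 held 3 DKO-specific regions each. The long gene models Gm20388 and Gm37240, which span many other genes, held 6 WT-specific and 6 DKO-specific, and 2 and 4, respectively.

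The genotype-specific regions of day 0 were followed into the later libraries, which had no part in choosing them. The percent of WT-specific regions called minus the percent of DKO-specific regions called was 13.3 points lower in DKO than in WT libraries over days 3, 6 and 9 (difference −13.3, exact permutation test within day, two-sided p = 0.00025, which is its lower limit). It was −14.3 at day 3, −15.2 at day 6 and −10.5 at day 9, each with an exact permutation p of 0.1, the lower limit for 3 against 3. The test over these days took every later library as a separate unit. The labels do not say whether the same cultures or mice recur across days, and if they do, its p is too small. WT-specific regions were called at 35.1% ± 11.5, 41.8% ± 3.10 and 43.3% ± 7.03 (SD, n = 3) in WT libraries of days 3, 6 and 9 and at 18.5% ± 4.68, 12.5% ± 5.85 and 40.1% ± 2.58 in DKO libraries. DKO-specific regions were called at 21.1% ± 7.61, 26.8% ± 1.28 and 25.3% ± 3.93 in WT and at 18.8% ± 5.24, 12.6% ± 5.18 and 32.6% ± 1.19 in DKO. At day 6 the WT libraries held 98503 to 105511 peaks and the DKO libraries 47448 to 74867, and both sets were called less often in DKO. At day 9 DKO libraries held 111219 to 115923 peaks and WT libraries 91488 to 111761, and the part of peak number in these shares was not tested.

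**Figure D4:**
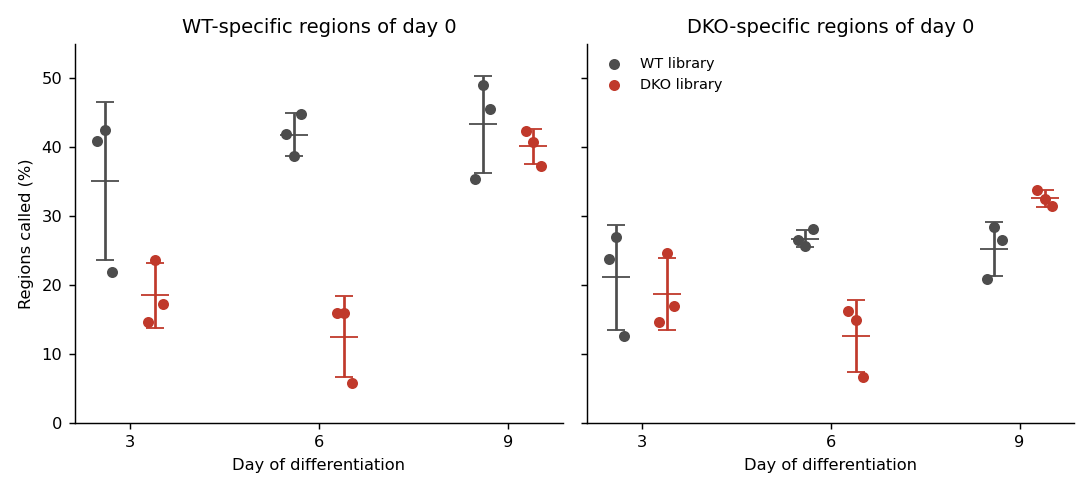
Percent of the 1145 WT-specific and 1347 DKO-specific regions of day 0 that held a peak in each library of days 3, 6 and 9, with the mean and SD of 3 libraries. WT libraries (grey) call more of the WT-specific regions than DKO libraries (red) without overlap at day 6 (41.8% against 12.5% on average), while 1 WT library falls among the DKO libraries at day 3. At day 9 the DKO-specific regions separate, with DKO above WT.

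By function, genes of collagens and matrix glycoproteins held more WT-specific than DKO-specific regions. The territories of 24 such genes held 509 regions, of which 13 were WT-specific (2.55%, against 1.13% of all regions) and none DKO-specific. With DKO replicate 2 left aside and the regions kept, there were 16 WT-specific and 1 DKO-specific, against 1.86% and 2.28% of all regions. Fbn1, which forms microfibrils, held 4 of them and the fibrillar collagen gene Col5a1 held 2. The collagen genes Col1a2, Col4a2, Col5a2 and Col12a1 and those of the matrix glycoproteins Sparc, Tnc and Thbs2 held 1 each. Of the 117 regions tested, 7 were lower in fold enrichment (5.98%, against 2.5% of all regions) and 0 higher by limma, with 19 lower and 0 higher at an unadjusted p under 0.05. At that unadjusted p 3418 of all 31985 regions were lower and 3533 higher. There were 4 lower and 0 higher of 211 tested without DKO replicate 2, against 657 lower and 621 higher of all 48323 tested in that fit. The 7 were 3 in Fbn1, among them its promoter with fold enrichments of 18.8, 19.6 and 21.5 in WT and 13.8, 12.2 and 14.3 in DKO, and 1 each in Col1a1, Col5a2, Col6a2 and Col12a1. The region over Col1a1, the main chain of type I collagen, had fold enrichments of 21.7, 22.6 and 21.2 in WT and 12.2, 13.7 and 19.1 in DKO (log2 −0.60, adjusted p = 0.035). No region of the list passed by reads under limma, where 17 were lower and 0 higher at an unadjusted p under 0.05. By reads 2239 of all 31985 regions were lower and 2424 higher at that p. The mean log2 read level over the 117 regions was 3.24 to 3.27 in WT and 3.07 to 3.15 in DKO, and the groups did not overlap. This was not particular to matrix genes. Wnt pathway genes (3.31 to 3.35 against 3.24 to 3.25) and histone acetylation enzymes (3.50 to 3.54 against 3.44 to 3.49) also separated. Housekeeping genes overlapped (4.10 to 4.15 in WT and 4.09 to 4.14 in DKO). The promoter of Col3a1 had fold enrichments of 14.3, 13.4 and 15.3 in WT and 18.7, 15.4 and 17.3 in DKO and did not pass. The macrophage and leukocyte markers, higher in DKO as given above, differed in the same libraries, and their part in the matrix values was not tested.

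The macrophage and leukocyte markers had 3 of 19 regions higher in fold enrichment, against 2.84% of all regions, and 0 lower. These were the promoter regions of Spi1, the master factor of myeloid cells (9.46, 12.5 and 13.8 in WT and 18.05, 18.9 and 20.1 in DKO, adjusted p = 0.0275), and Cd14, a lipopolysaccharide receptor (10.8, 11.2 and 14.2 against 22.2, 24.8 and 24.9, adjusted p = 0.00187), and a region at Itgam (5.62, 3.82 and 6.32 against 8.06, 7.88 and 10.5, adjusted p = 0.0326). By reads only the promoter of Ptprc, the pan-leukocyte antigen CD45, passed, with 24, 26 and 30 in WT and 50, 78 and 43 in DKO (adjusted p = 0.0247). The limma fit of reads gave 9 of the 19 higher and 0 lower at an unadjusted p under 0.05. Over all 31985 regions it gave 2424 higher and 2239 lower. Without DKO replicate 2 fold enrichment was higher in 2 and reads in 0 of the 32 regions of the list then tested. Lyz2, a lysozyme of the same cells, had fold enrichments of 14.3, 16.5 and 14.8 in WT and 14.7, 15.0 and 15.4 in DKO. The list's median log2 differences were 0.31 in fold enrichment and 0.33 in reads, against −0.0029 and −0.0039 over all regions. Schwann cell markers had 1 of 14 regions higher (7.14%) and 0 lower in fold enrichment. It lay in Mbp, with 8.16, 7.33 and 9.14 in WT and 12.8, 12.6 and 13.2 in DKO, and did not pass by reads. Of the 31 regions of these markers 2 were DKO-specific (6.45%, against 1.32% of all regions), both in the territory of Erbb3. For 1 of them the nearest gene start was that of Pa2g4. Endothelial markers had 0 of 8 regions past the test in either direction, with 1 lower and 1 higher at an unadjusted p under 0.05 by limma. Over all 31985 regions 3418 were lower and 3533 higher in fold enrichment at that p.

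Of the 80 tested regions of 20 adipogenic transcription factors, 3 were lower (3.75%) and 1 higher (1.25%) in fold enrichment. Over all regions these shares were 2.5% and 2.84%. None of the 80 passed by reads, where limma gave 2 lower and 1 higher at an unadjusted p under 0.05. By reads 2239 of all 31985 regions were lower and 2424 higher at that p. Those lower in fold enrichment were the promoters of Pparg, the master regulator of adipogenesis (9.96, 7.80 and 8.95 in WT and 4.44, 4.72 and 7.39 in DKO, adjusted p = 0.0344), Klf15 (8.78, 9.13 and 13.7 against 5.64, 6.01 and 5.97) and Klf9 (15.6, 17.6 and 18.5 against 10.3, 8.69 and 16.6). At the Pparg promoter the reads were 28, 24 and 24 in WT and 21, 33 and 25 in DKO (adjusted p = 0.537), and the local background was higher in DKO by 0.45 in log2. The promoters of Cebpa, Cebpb and Cebpd did not pass, with log2 differences of 0.25, −0.13 and 0.03. Without DKO replicate 2 there was 1 lower and 1 higher region of 123 tested. The territories of the list held 4 DKO-specific regions (1.52%, against 1.32% of all regions), in Ebf1, Klf15, Nr3c1 and Stat5b, and no WT-specific one. Among the 43 tested regions of the progenitor markers, 4 were higher (9.30%), 3 of them in Creb5 and 1 at Itgb1, and 1 was lower (2.33%), the promoter of Fap, against 2.84% and 2.5% of all regions. Without DKO replicate 2 there were 2 higher and 2 lower of 81 tested. The main promoter region of Pdgfra had fold enrichments of 16.8, 25.99 and 18.3 in WT and 18.9, 22.0 and 23.6 in DKO and did not pass (log2 0.08, adjusted p = 0.843), while a second region at another transcript start of the gene (chr5:75161695-75162403) was WT-specific, with 12, 20 and 13 reads. That was the only WT-specific region of the list (0.741%), and 4 regions were DKO-specific (2.96%, against 1.32% of all regions), 2 of them at Pdgfrb and 1 each at Icam1 and Creb5. Of the genes that the study names for white fat, Pnp2, a purine nucleoside phosphorylase, had a promoter lower in reads (36, 40 and 35 in WT and 24, 31 and 27 in DKO, log2 −0.74, adjusted p = 0.0226), and the promoters of Slc6a6 and Adamts5 did not pass. An intronic region of another gene model with Adamts5 as the nearest start, 241 kb away (chr16:86142952-86144945), was among the 49, with 35, 38 and 32 reads in WT and 13, 39 and 21 in DKO (log2 −0.74, adjusted p = 0.023). No region was called at Ucp1, the uncoupling protein of brown fat, in any library of day 0, and Ppargc1a, its coactivator, had fold enrichments of 5.80, 8.29 and 6.89 in WT and 5.29, 9.18 and 7.61 in DKO.

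**Figure D5:**
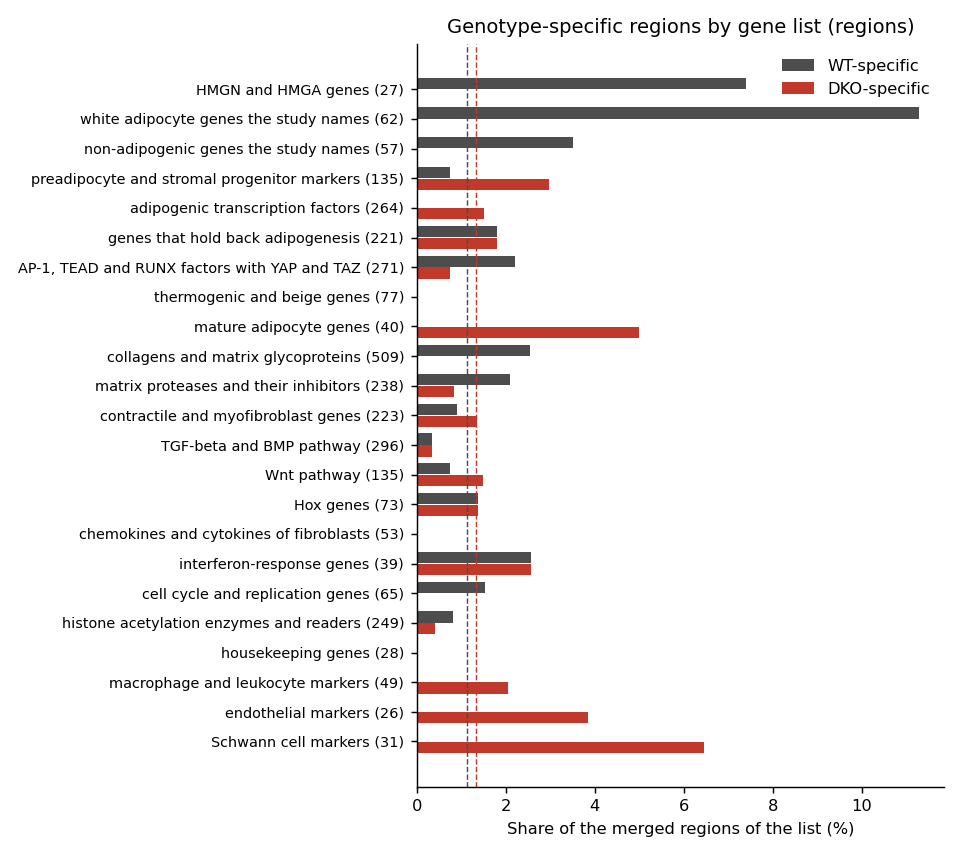
Share of the merged regions in the territories of each gene list that were WT-specific (grey) or DKO-specific (red) at day 0, in percent, for the 23 lists with at least 20 regions, whose number stands in brackets. Dashed lines mark the shares over all regions (1.13% and 1.32%). Collagens and matrix glycoproteins reach 2.55% WT-specific with none DKO-specific, and the white adipocyte genes reach 11.3% through Galnt9 alone.

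The AP-1, TEAD and RUNX factors with their coactivators held 271 regions. Of these 6 were WT-specific (2.21%, against 1.13% of all regions), 5 of them in Runx2 and 1 in Wwtr1, and 2 DKO-specific (0.738%, against 1.32%). In fold enrichment 2 of the 73 tested regions were lower (2.74%, against 2.5% of all regions) and 0 higher. Wwtr1, which encodes the TEAD coactivator TAZ, also had an intronic region lower in fold enrichment, from 9.75, 10.8 and 12.3 to 5.87, 5.00 and 5.68 (log2 −0.997, adjusted p = 0.00359), with reads of 27, 33 and 33 against 31, 35 and 19 that did not pass. Without DKO replicate 2 the list had 5 lower and 0 higher of 116 tested, against 657 lower and 621 higher of all 48323 tested in that fit. Hox genes had 3 of 27 regions lower (11.1%, against 2.5% of all regions) and 0 higher, the region over Hoxa3 and Hoxa6 falling from 13.9, 14.5 and 13.4 to 8.04, 5.80 and 9.94. Its reads were 40, 45 and 37 against 28, 60 and 39 and did not pass, and no Hox region passed by reads, where limma gave 6 lower and 0 higher at an unadjusted p under 0.05. Over all 31985 regions that fit of reads gave 2239 lower and 2424 higher. Over all lists, 27 of their 3106 regions, not all of which could be tested, were lower and 16 higher in fold enrichment. Over all 101666 regions the numbers were 800 and 907. Housekeeping genes had 0 of 17 past the test in either direction (2 lower and 3 higher at an unadjusted p under 0.05 by limma). At that p 3418 of all 31985 regions were lower and 3533 higher in fold enrichment.

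Promoters and distal regions were compared within each library. The median log2 fold enrichment at promoters minus that at distal regions was 0.752, 0.729 and 0.775 in WT and 0.811, 0.790 and 0.799 in DKO. Every DKO library was above every WT library, by 0.048 on average (exact permutation test, p = 0.1, two-sided, and 3 against 3 cannot go lower). With 20000 peaks per library the direction turned (−0.000826, exact permutation p = 1). The share of distal summits with an AP-1 motif was 3.58%, 3.70% and 3.65% in WT and 3.66%, 4.88% and 3.76% in DKO (difference 0.454 points, exact permutation p = 0.2), and the value of DKO replicate 2, with its fewer and longer peaks, decided it: without that library the difference was 0.065 points. Among distal regions with fewer reads in DKO, 0 of 60 held an AP-1 match and 4 of 60 a RUNX match (6.67%), and among those with more reads 1 of 54 held each (1.85%). Of all 17388 distal regions called in 6 of 6 libraries, 3.10% held an AP-1 match and 4.21% a RUNX match. These shares are descriptions of which letters lie near the summits.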

How the data were processed

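H3K27ac ChIP-seq libraries were sequenced by the authors and deposited as 1 MACS2 narrowPeak list per library, with reads aligned to mm10. The submitters' processing notes name bcl2fastq 2.17, cutadapt 1.18, BWA 07.17 and MACS2 2.1.1.20160309. The deposited fold enrichment is the ratio of the pileup at the summit to the local background, as the authors' peak caller wrote it, and the deposited −log10 p and −log10 q columns are from the same caller. The 16 input libraries of the series were not analysed here. Total reads per library are not in the lists, so depth was read from the peaks.

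From these columns the whole reads at each summit and the local background were recovered, with 100% of values whole within 0.02 in each library. The 6 lists were merged into regions (1 bp overlap), and for the 31985 regions with a peak in every library the log2 highest fold enrichment was quantile-normalised and fitted with limma 3.58.1 (R 4.3.3, trended variance, Benjamini-Hochberg, adjusted p 0.05) over the 6 libraries with no covariate. The reads, over the lowest background of the library, were fitted in the same way as an alternative, and only the fits of reads with a replicate block or without DKO replicate 2, the fit of the local background and the levels at later days were added after seeing the data. Single values per library were tested by exact permutation over libraries (scipy 1.17.1). Promoters are within 1 kb of an annotated transcript start, and a gene's territory runs from 5 kb upstream to its end. The scripts were checked on simulated data. Regions named are the 10 largest per direction past the test without overlap, the 10 genotype-specific regions per direction with the highest median −log10 q, the 5 genes per direction with the most such regions, the 3 stretches of 1 Mb with the highest share and members of the gene lists, and any others were chosen after their values were seen. Members and lists were chosen with earlier results of these data known. Alternatives were other normalisations, peak thresholds, summit windows, a replicate block and leaving out each library.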

Additional observations from a re-analysis of the deposited data

Results flagged for a closer look

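The DKO-specific regions of day 0 were called less often in DKO than in WT libraries at day 6 (difference −14.1 points) and more often at day 9 (7.32 points), and every DKO library lay below every WT library at day 6 and above at day 9. The change between these days was 21.5 points (exact permutation test within day, two-sided p = 0.005, the smallest of 400 relabellings, Benjamini-Hochberg adjusted p = 0.03 over 6 such tests). At day 6 DKO libraries held 47448 to 74867 peaks and WT libraries 98503 to 105511, and at day 9 they held 111219 to 115923 and 91488 to 111761. The part of peak number in this change was not tested. The permutation took the libraries of both days as separate units, and the labels do not say whether cultures or mice recur across days.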

How the results depend on the processing

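Numbers of regions lower and higher in fold enrichment were 324 and 452 with no normalisation and 236 and 271 of 9291 from 20000 peaks per library. With missing values set to the lowest fold over 53739 regions they were 0 and 1 by limma (5466 and 5848 at an unadjusted p under 0.05). They were 82 and 88 by recovered reads, and 18 and 23 by reads without DKO replicate 2. Leaving out 1 library gave 365 to 657 lower and 386 to 621 higher, and for regions of the gene lists 11 to 30 lower and 5 to 10 higher. Equal replicate numbers did not pair the samples (correlations of deviations between −0.0064 and 0.0027): with a replicate block 796 and 890 were called, and by reads with a replicate block 49 and 47. WT-specific regions numbered 720 at a −log10 q of at least 5 and 77 from 20000 peaks per library, and DKO-specific ones 468 from 20000 peaks. Leaving out 1 library gave 1391 to 2831 and 1796 to 4220. The difference in promoter minus distal level turned to −0.000826 with 20000 peaks per library and the covered length to −6.40 Mb with summit windows. That in peak number lay between −24663 and 502, turning only without DKO replicate 2. The later-day balance of genotype-specific regions kept its direction and its side of the threshold under every alternative. Of the 20 regions named for the largest fold differences, 8 kept their call by reads, 6 by reads with a replicate block, 2 by reads without DKO replicate 2 and 0 with missing values set to the lowest fold, and none changed direction in any alternative. The causes were not tested.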

Other observations

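Among 465 pairs of the 31 summit windows compared by local alignment, the DKO-specific window near Depdc1b and the window at Cfap69, which lost acetylation in DKO, had the highest score, with 127 identical bases over 180 aligned columns (70.6%). The next pair aligned over 80 columns. The windows were chosen after their values were seen, and no test was made.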
